A study of Drosophila melanogaster with 14 samples.

Results

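The 6 genes *ap*, *ato*, *Hr51*, *Eip75B*, *kay* and *CrebB* encode transcription factors and were followed in the ventral lateral neurons (LNvs), the PDF-expressing pacemaker cells of the *Drosophila* brain. They were chosen by name, with earlier results of these data known and with no threshold on any value, so their p-values are not independent support for that choice. All 6 were found among the 13792 genes quantified. The tested groups were *Atx2* RNAi LNvs at ZT0 and at ZT12 and *tyf(e)* LNvs at ZT4 and at ZT16, with 2 libraries each, and the wild-type (WT) LNvs had 1 library each at ZT0 (labelled ZT24), ZT2, ZT4, ZT12, ZT14 and ZT16. ZT is the time in hours after lights-on in a cycle of 12 h light and 12 h dark. All flies were female, of the w1118 background, and kept at 25°C, with 1.5x sucrose-yeast food as the food on which they were raised per the labels and aged per the study's methods, and their LNvs were marked by Pdf>mGFP, sorted, and their RNA amplified with T7 RNA polymerase before sequencing. The age of the flies is not given in the sources used here. *Atx2* RNAi came from the single line KK108843 and acted in the PDF neurons, whereas *tyf(e)* is a loss-of-function allele carried by the whole animal. The labels do not say whether replicates came from separate flies or sorts, so p-values measure the spread between these libraries, which may be technical. No WT time was replicated, so the WT groups tested joined libraries of different times. In these groups the spread also holds any difference between those times. WT libraries are named in another form than the mutant libraries, and the labels do not say whether both sets were prepared together. Differences between mutant and WT genotypes thus cannot be told apart from other differences between the sets.

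The LNvs fall into small and large classes, of which the small ones keep behavioural rhythms going in constant darkness. *ap* (apterous) encodes a LIM-homeodomain factor that patterns the dorsal wing and sets the identity of peptidergic neurons, and *ato* (atonal) encodes a proneural bHLH factor that founds chordotonal organs and photoreceptors. *Hr51* (unfulfilled) and *Eip75B* (E75, a heme-binding receptor induced by ecdysone) encode nuclear receptors that act on clock gene transcription in small LNvs. *kay* encodes the fly Fos protein and *CrebB* the fly CREB protein, both bZIP factors, of which CREB responds to cAMP signalling.

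The libraries held between 5216112 and 23507263 estimated counts. *Atx2* had 6.10 to 14.3 TPM in *Atx2* RNAi LNvs, against 45.5 to 83.7 TPM in WT LNvs, and *tyf* had 6.65 to 15.1 TPM in *tyf(e)* LNvs, against 57.2 to 164 TPM in WT LNvs, so both targeted genes matched the labels. TPM gives each transcript's share of all transcripts, corrected for length and scaled to a fixed total, and allows levels to be compared between genes. *Pdf*, the defining LNv marker, was high throughout, with 262756 to 347866 TPM in the mutants and 192687 to 278824 TPM in WT. Of the 8 LNv markers, *Pdfr* and *vri* were called higher and *cry* lower in *Atx2* RNAi at ZT0, and *cry* and *Pdfr* higher at ZT12. In *tyf(e)*, *Pdfr* and *vri* were higher at ZT4, and at ZT16 *Pdf* was higher (log2 1.04 ± 0.26, adjusted p = 0.0286, edgeR) and *tim* lower. Shares called over all genes were 7.3%, 6.83%, 4.3% and 6.22% in the same order. The other summed marker lists were low beside *Pdf*. The 6 glial markers summed to 82.9 to 241 TPM in *tyf(e)*, 4.58 to 23.4 TPM in *Atx2* RNAi and 9.01 to 33.4 TPM in WT, mostly through *Gs2*. *repo*, which defines glia, had 1.06 to 3.37 TPM in *tyf(e)*, against 0 to 0.56 TPM in WT, without being called. *Gs2* was called higher in *tyf(e)* at both times and *wrapper* at ZT16 (log2 5.54 ± 1.52, adjusted p = 0.047, edgeR). The 5 photoreceptor markers summed to 21.8 to 172 TPM in *tyf(e)*, 21.3 to 36.1 TPM in *Atx2* RNAi and 32.3 to 48.1 TPM in WT. Among them *ninaE*, with 85.1 and 144 TPM in *tyf(e)* at ZT16, was called higher there (log2 3.76 ± 0.77, adjusted p = 0.0115, edgeR). It was called lower in *Atx2* RNAi at ZT0 (-3.29 ± 0.64, adjusted p = 0.0114, edgeR). The 6 fat body and hemocyte markers summed to at most 11.2 TPM and the 4 muscle markers to at most 5.92 TPM in any library. Of these, *apolpp* was called higher in *Atx2* RNAi at ZT0 (log2 1.66, adjusted p = 0.00602) and ZT12 (1.99, adjusted p = 0.00295, edgeR).

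In WT LNvs the 6 genes formed an upper and a lower tier of levels. *Eip75B* averaged 85.4 ± 31.0 TPM, *CrebB* 73.8 ± 37.6 TPM and *Hr51* 69.8 ± 16.8 TPM (SD over 6 libraries taken at different times). *ap* averaged 20.8 ± 8.27 TPM, *kay* 16.5 ± 7.19 TPM and *ato* 14.3 ± 5.92 TPM in the same libraries. The lowest value of the upper tier, 37.4 TPM for *CrebB* at ZT16, lay above the highest of the lower tier, 33.9 TPM for *ap* at ZT14. Within each tier the ranges overlapped, so the order there is not larger than the spread.

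**Figure D1:**
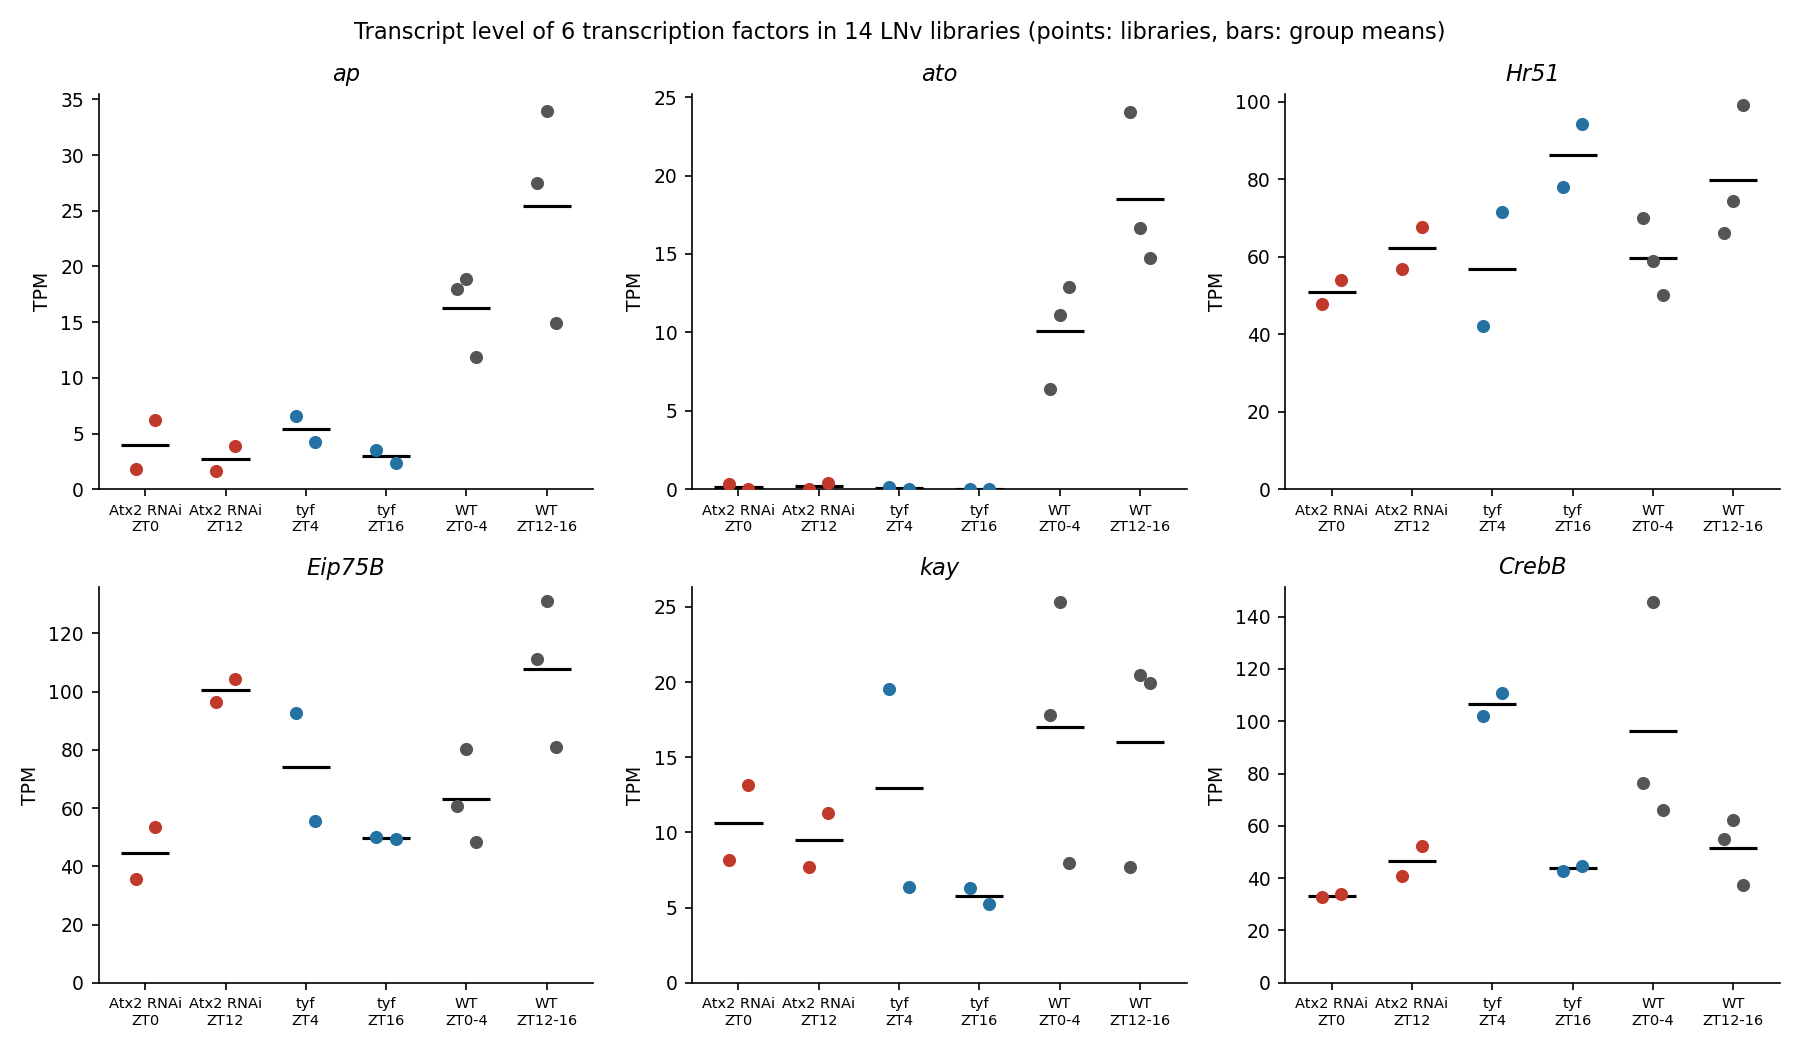
Gene level in TPM (vertical axes, each from 0) for the 6 transcription factors, with 1 point per library, coloured by genotype, and a bar at the mean of each group of 2 or 3 libraries. All 8 mutant libraries lie below all 6 wild-type libraries for *ap* and *ato*, while the genotypes overlap for the other 4 genes.

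Of the 6 genes, *ap* and *ato* were lower in TPM in every mutant library than in every WT library. How many of all genes split in this way was not counted, and 19.6% of all genes were called between both mutants and WT (below). *ap* (FBgn0267978, chromosome arm 2R, 5706202 to 5727525, minus strand, dm6 assembly) had 1.79 and 6.22 TPM in *Atx2* RNAi at ZT0 and 1.64 and 3.87 TPM at ZT12. In *tyf(e)* it had 6.55 and 4.26 TPM at ZT4 and 3.56 and 2.33 TPM at ZT16. The WT libraries had 17.98, 18.8 and 11.9 TPM at ZT0, ZT2 and ZT4, and 27.5, 33.9 and 14.9 TPM at ZT12, ZT14 and ZT16. The highest mutant value was thus below the lowest WT value. In such sorted pools, fewer cells that express a gene and less RNA per cell cannot be told apart.

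Each mutant group was compared with the 2 WT libraries nearest in time, as in the methods of the study, with edgeR's quasi-likelihood test on counts summed per gene. All genes tested entered the Benjamini-Hochberg adjustment, and genes with an adjusted p under 0.05 are described as called. In *Atx2* RNAi at ZT0 against WT at ZT0 and ZT2, 3 of the 6 genes were called, all lower (*ap*, *ato* and *CrebB*), where 7.3% of all genes tested were called. At ZT12 against WT at ZT12 and ZT14, 2 of 6 were called, both lower (*ap* and *ato*), where 6.83% of all genes were called. In *tyf(e)* at ZT4 against WT at ZT2 and ZT4, 1 of 6 was called lower (*ato*), where 4.3% of all genes were called, and at ZT16 against WT at ZT14 and ZT16, 2 of 6 were called lower (*ap* and *ato*), where 6.22% were called. These shares moved with single libraries: leaving out 1 library at a time gave 178 to 796 called genes in place of 631 in *Atx2* RNAi at ZT0, 132 to 427 in place of 590 at ZT12, 139 to 438 in place of 409 in *tyf(e)* at ZT4 and 184 to 355 in place of 591 at ZT16. The 2 experiments share the WT libraries of ZT2 and ZT14. The median log2 fold change of the 6 genes was -1.02, -0.09, 0.03 and -0.996 in these comparisons, in the order given, against -0.01, -0.01, 0.01 and -0.03 over all genes tested.

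*ap* was 3.68-fold lower in *Atx2* RNAi at ZT0 (log2 fold change -1.88 ± 0.45 SE, adjusted p = 0.0298) and 8.90-fold lower at ZT12 (-3.15 ± 0.49, adjusted p = 0.00428, edgeR). In *tyf(e)* it was 5.59-fold lower at ZT16 (-2.48 ± 0.42, adjusted p = 0.00381, edgeR). At ZT4 the log2 difference of -1.40 ± 0.40 missed the threshold (adjusted p = 0.0675, edgeR), and it was called with DESeq2 (adjusted p = 0.022) and without the filter on low counts (adjusted p = 0.00607). Both *tyf(e)* libraries were below both WT libraries at ZT4, a split that was not counted over all genes. The ZT0 call was lost without the first *Atx2* RNAi library (-1.30, adjusted p = 0.156), without the WT ZT2 library (-1.80, adjusted p = 0.096), and when only the 4 libraries of the comparison were fitted (adjusted p = 0.0535). The ZT16 call was lost without the WT ZT14 library (-1.88, adjusted p = 0.0503, edgeR). The difference in the *ap* effect between times did not pass the test for *Atx2* RNAi (1.28 ± 0.65, adjusted p = 0.508) or for *tyf(e)* (1.09 ± 0.57, adjusted p = 0.901).

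*ato* (FBgn0010433, arm 3R, 8278052 to 8279274, plus strand, a single exon) was almost unread in the mutants. The estimated counts were 3 and 0 in *Atx2* RNAi at ZT0, 0 and 2 at ZT12, 1 and 0 in *tyf(e)* at ZT4, and 0 and 0 at ZT16. WT libraries held 26, 59 and 205 counts at ZT0, ZT2 and ZT4, and 153, 75 and 164 counts at ZT12, ZT14 and ZT16. In TPM the mutants ran from 0 to 0.43 and WT from 6.39 to 24.03, so no mutant library came near any WT library.

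Because the mutant counts were this low, *ato* is given as ratios of summed counts per normalized library size, with exact Clopper-Pearson 95% intervals that cover counting error only. Against *Atx2* RNAi at ZT0 the WT level was 43.7 times as high (interval 14.5 to 216.1, from 3 and 85 counts), and at ZT12 it was 75.4 times as high (20.6 to 626.6, from 2 and 228 counts). Against *tyf(e)* at ZT4 it was 173 times as high (30.8 to 6868, from 1 and 264 counts). With 0 counts in *tyf(e)* at ZT16 and 239 in WT, *ato* was at least 73.2-fold lower, computed against a floor of 3 counts over the group. The adjusted p was 0.00822 for *Atx2* RNAi at ZT0, 0.00563 at ZT12, 0.00142 for *tyf(e)* at ZT4 and 0.000803 at ZT16 (edgeR). Without the first *Atx2* RNAi ZT12 library the ZT12 call was lost at an adjusted p of 0.0509.

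With all 14 libraries in a single fit and the 4 mutant groups averaged, 2 of the 6 genes were called, where 19.6% of all genes were called. *ap* was 4.42-fold lower in the mutants (log2 fold change -2.15 ± 0.26, adjusted p = 3.78e-05), and *ato* was called at an adjusted p of 2.17e-06 (edgeR). The same 2 genes were called without any of the 14 libraries in turn. Genotype cannot be told apart here from any other difference between the mutant and the WT sets of libraries. The log2 differences of the other 4 were 0.24 ± 0.16 for *Hr51*, -0.08 ± 0.15 for *Eip75B*, -0.48 ± 0.27 for *kay* and -0.06 ± 0.18 for *CrebB*, with adjusted p between 0.243 and 0.849 (edgeR).

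**Figure D2:**
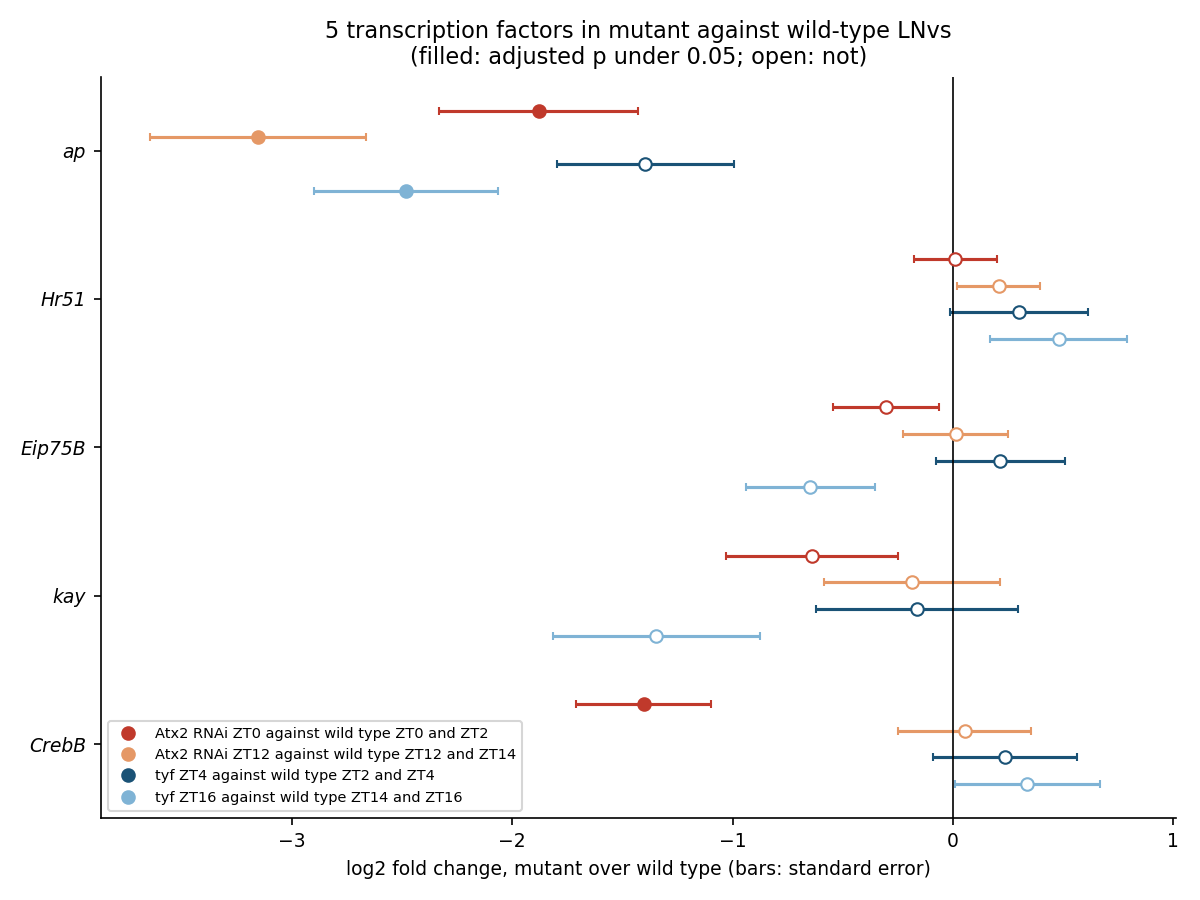
Log2 fold change of mutant over wild type (horizontal axis, bars are 1 standard error) for 5 genes in the 4 comparisons with the wild-type libraries nearest in time. Each wild-type group joins a library of the same time and a library of another time. Filled points have an adjusted p under 0.05. *ap* lies between -3.15 and -1.40 in all 4, *CrebB* is filled at -1.40 in *Atx2* RNAi at ZT0 alone, and *ato* is left out because its mutant counts are at or near 0.

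The genes whose levels over the 14 libraries were most like *ap* were *ChT*, *VAChT* and *Ggamma1*. Likeness was measured as Pearson's r of log2(CPM + 1), CPM being counts scaled to a common library size, over 9695 genes, and libraries of 1 genotype share their source and handling. *ChT*, the choline transporter gene, had r = 0.97, *VAChT*, the vesicular acetylcholine transporter gene, 0.97, and *Ggamma1*, a G protein subunit gene, 0.94. In *ap* and these 3 genes the mutant and WT libraries do not overlap, and within the 8 mutant libraries r was 0.86 for *ChT*, 0.91 for *VAChT* and 0.75 for *Ggamma1*. Within the 6 WT libraries it was 0.86, 0.54 and 0.72 for the same genes, so the likeness of *ap* and *ChT* was present within both sets of libraries. Here and below, the similar genes were picked by r over these 14 libraries, so r within either set is not independent of that choice.

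*VAChT* had 1.20 to 5.75 TPM in the 8 mutant libraries, against 12.9 to 27.04 TPM in the WT libraries, and *ChAT*, which encodes the acetylcholine-synthesizing enzyme, had 1.43 to 20.3 TPM, against 26.7 to 52.8 TPM. *VAChT* was called lower in all 4 mutant comparisons and *ChAT* in 3 (the log2 difference in *tyf(e)* at ZT4 was -1.12 ± 0.35, adjusted p = 0.0931, edgeR). The second *Atx2* RNAi ZT0 library and the first *tyf(e)* ZT4 library stood highest among the mutants in *VAChT*, with 5.51 and 5.75 TPM, as they did in *ap*, *Ggamma1*, *Gad1* and *kay*. Of the 6 matched markers of other neurons, *VAChT* and *ChAT* were the ones called lower in any comparison with WT, and *ple*, for dopamine synthesis, was called higher in *Atx2* RNAi at ZT12 (log2 2.51 ± 0.65, adjusted p = 0.0414, edgeR). *Gad1*, for GABA synthesis, had 50.5 and 192 TPM in those 2 libraries and 0.23 to 8.87 TPM in the other mutant libraries, against 1.17 to 18.04 TPM in WT. The list as a whole summed to 49.0 to 395 TPM in the mutants and 113 to 318 TPM in WT. In most libraries its largest part was *Tdc2*, with 34.7 to 388 TPM in the mutants and 42.6 to 241 TPM in WT. Whether cholinergic cells or other cells in the sort had a part in the level of *ap* or *ato* was not tested.

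**Figure D3:**
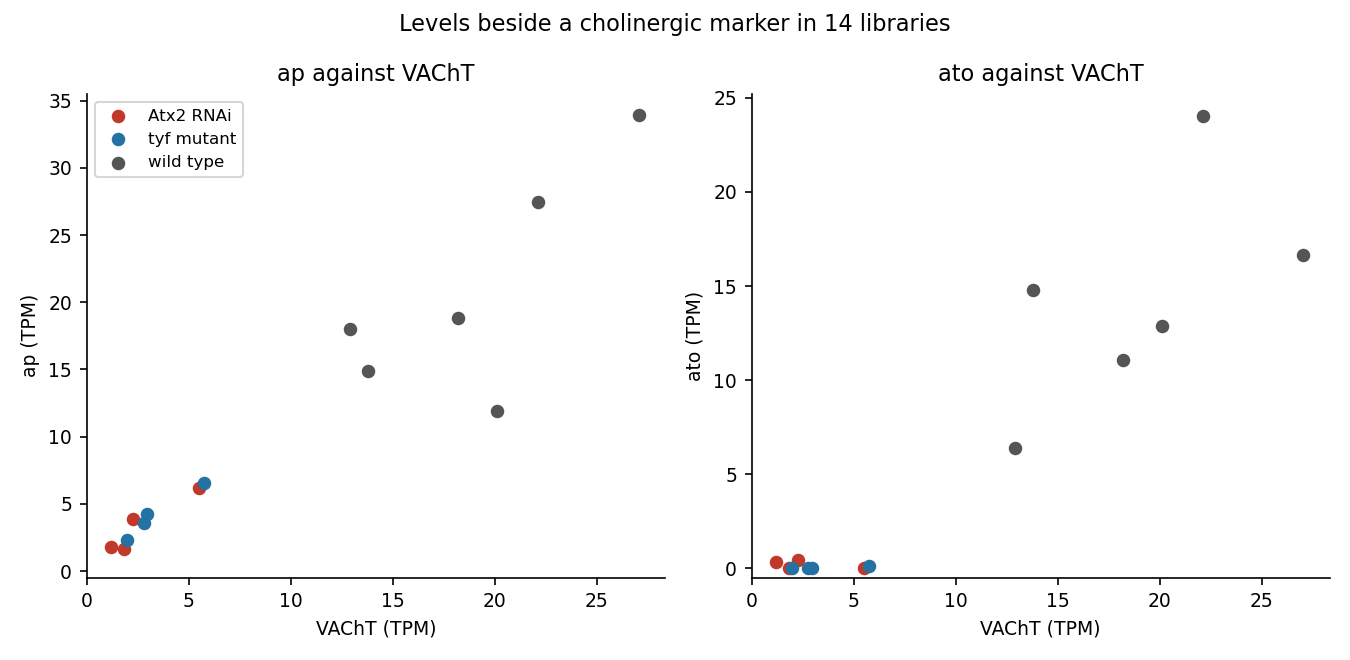
*ap* (left) and *ato* (right) in TPM against *VAChT* in TPM, with 1 point per library, coloured by genotype. The 8 mutant points lie at 5.75 TPM of *VAChT* or less and the 6 wild-type points at 12.9 TPM or more, and *ap* spreads along *VAChT* within the mutants, whereas *ato* lies near 0 in all of them.

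For *ato* the 3 most similar genes were *Kr*, the gap gene Krüppel (r = 0.96), *CG14292* (0.95) and *CG11596* (0.95), but this rested on the gap between the mutant and WT libraries: within the mutants r was 0.26, 0.53 and -0.66, and within WT 0.47, -0.49 and 0.75. *CG14292* was as sharply split as *ato*, with 0 to 1.27 TPM in the mutants and 31.7 to 86.2 TPM in WT. *Kr* had 1.79 to 4.97 TPM in the mutants, against 19.2 to 41.8 TPM in WT.

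*CrebB* (FBgn0265784, X chromosome, 18366357 to 18377864, plus strand) was called lower in *Atx2* RNAi at ZT0. Normalized counts, scaled to the library sizes of an experiment, were 635 and 587 in *Atx2* RNAi at ZT0, against 1023 and 2203 in WT at ZT0 and ZT2. The WT ZT2 library stood apart from the other 3 and was the highest of all 14 in TPM, at 146. The level in *Atx2* RNAi was 2.64-fold lower (log2 -1.40 ± 0.31, adjusted p = 0.0201, edgeR), and without the WT ZT2 library the log2 difference was -0.74 and not called (adjusted p = 0.0942). The call was also lost without either *Atx2* RNAi library, at differences of about the same size (-1.46 and -1.34, adjusted p = 0.112 and 0.126), and held without the WT ZT0 library (-1.85, adjusted p = 0.000621).

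At the other times *CrebB* did not pass the test. It had 775 and 865 normalized counts in *Atx2* RNAi at ZT12, against 770 and 810 in WT at ZT12 and ZT14 (log2 0.05 ± 0.30, adjusted p = 0.945). In *tyf(e)* it had 2350 and 3125 at ZT4, against 3160 and 1494 in WT at ZT2 and ZT4, and 1154 and 1260 at ZT16, against 1168 and 745 in WT at ZT14 and ZT16. These differences of 0.24 ± 0.33 and 0.34 ± 0.33 had adjusted p of 0.756 and 0.604 (edgeR).

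*CrebB* was higher by day than by night in WT and *tyf(e)* libraries, without passing the test. On the scale of all 14 libraries, WT had 1247, 2705 and 1285 normalized counts at ZT0, ZT2 and ZT4, and 949, 988 and 642 at ZT12, ZT14 and ZT16. These did not overlap, a split that was not counted over all genes. The log2 difference of ZT0 to ZT4 against ZT12 to ZT16 was 1.02 ± 0.27 (adjusted p = 0.0647, edgeR), and it was called with DESeq2 (adjusted p = 0.00649), without the filter (0.0201) and without either the ZT0 (1.22, 0.0234) or the ZT4 library (1.21, 0.0414). Without the WT ZT2 library the difference was 0.55 (adjusted p = 0.338, edgeR), and without the ZT12, ZT14 or ZT16 library it was 0.85 to 1.14 and not called. *tyf(e)* had 2015 and 2676 at ZT4 and 1010 and 1100 at ZT16 (1.18 ± 0.33, adjusted p = 0.143, edgeR). Of 6 alternative settings, DESeq2 (adjusted p = 0.0208) and edgeR without the filter (0.00106) called this difference, and 4 did not. With each library left out in turn it ran from 0.95 to 1.37.

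*Atx2* RNAi libraries ran the other way for *CrebB*, with 789 and 738 at ZT0 and 950 and 1057 at ZT12 (log2 -0.43 ± 0.30, adjusted p = 0.603). The test of the difference between this and the WT contrast of ZT0 and ZT2 with ZT12 and ZT14 gave -1.46 ± 0.43 and did not pass in edgeR (adjusted p = 0.195), while it did with DESeq2 (0.0448), without the filter (0.00618) and without the WT ZT0 library (-1.88, 0.00915). Without the WT ZT2 library it was -0.78 (adjusted p = 0.309, edgeR), and without any of the other 6 libraries it was -1.50 to -1.35 and not called. For *tyf(e)* the same test gave -0.10 ± 0.46 (adjusted p = 0.993). None of the 6 genes was called in these interaction tests, where 0.74% of all genes were called for *Atx2* RNAi and 0.0526% for *tyf(e)*. *CrebB* alone had an unadjusted p under 0.05 for *Atx2* RNAi (0.00587 in the quasi-likelihood test), while none of the 6 did for *tyf(e)*, where DESeq2 called none either.

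**Figure D4:**
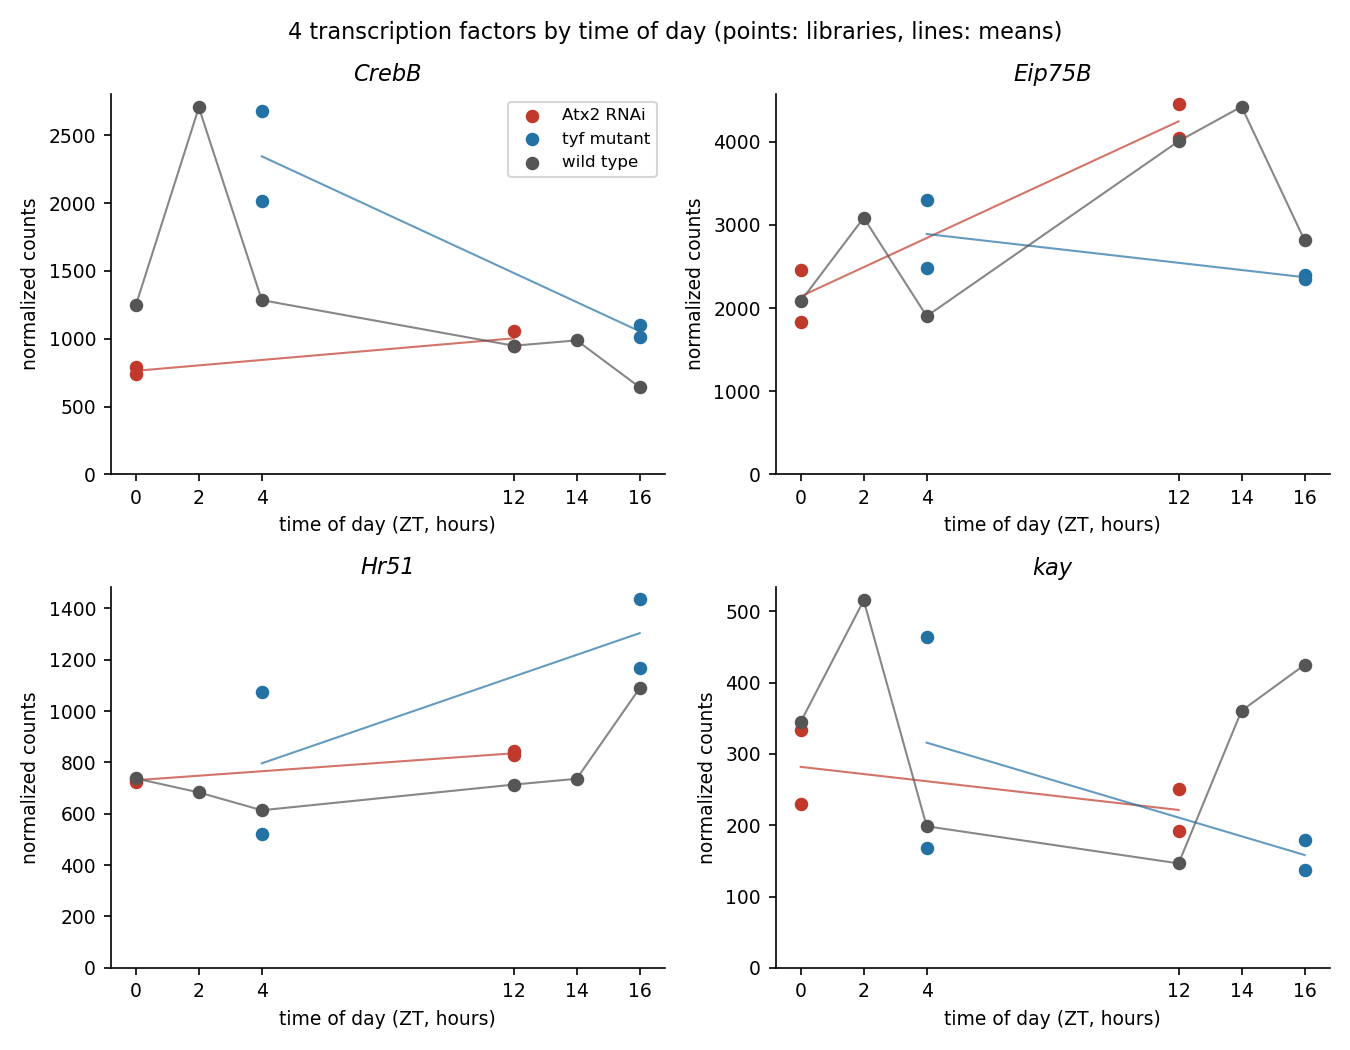
Normalized counts (vertical axes, each from 0) of *CrebB*, *Eip75B*, *Hr51* and *kay* against time of day in hours (ZT), with 1 point per library and lines through the mean at each time. *CrebB* peaks at 2705 in the wild-type ZT2 library and is at 789 and 738 in *Atx2* RNAi at ZT0, and *Eip75B* lies between 4007 and 4450 in *Atx2* RNAi at ZT12 and in wild type at ZT12 and ZT14.

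*Eip75B* (FBgn0000568, arm 3L, 17950953 to 18064696, minus strand) was the single gene of the 6 called between times in a mutant. It had 1469 and 1953 normalized counts in *Atx2* RNAi at ZT0 and 3630 and 3309 at ZT12, a 2.03-fold lower level at ZT0 (log2 -1.02 ± 0.24, adjusted p = 0.0395, edgeR). In this comparison 1 of the 6 genes was called, where 4.1% of all genes were called. The call was lost without any 1 of the 4 *Atx2* RNAi libraries, with log2 differences of -1.23 to -0.82 and adjusted p between 0.102 and 0.316.

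WT libraries had the same direction for *Eip75B*, with 2083, 3086 and 1903 normalized counts at ZT0, ZT2 and ZT4 and 4007, 4423 and 2815 at ZT12, ZT14 and ZT16. The ranges overlapped, and the log2 difference of -0.67 ± 0.22 did not pass the adjusted threshold (adjusted p = 0.199, edgeR). None of the 6 genes was called between these WT times, where 2.05% of all genes were called, although *CrebB* and *Eip75B* had unadjusted p of 0.0015 and 0.00817 in the quasi-likelihood test and DESeq2 called *CrebB*. *tyf(e)* had 3295 and 2486 at ZT4 and 2396 and 2347 at ZT16 (0.32 ± 0.29, adjusted p = 0.82), and the test of its difference from WT gave 0.86 ± 0.41 (adjusted p = 0.845, edgeR).

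*Eip75B* was not called between any mutant group and the WT libraries nearest in time. The log2 differences were -0.30 ± 0.24 and 0.01 ± 0.24 in *Atx2* RNAi at ZT0 and ZT12, and 0.22 ± 0.29 and -0.65 ± 0.29 in *tyf(e)* at ZT4 and ZT16, with adjusted p between 0.216 and 0.985 (edgeR). At ZT16 both *tyf(e)* libraries, with 2737 and 2687 normalized counts, were below the WT libraries of ZT14 and ZT16, with 5231 and 3266. How many of all genes split in this way was not counted.

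The gene most like *Eip75B* was *CG15628* (r = 0.86 over 14 libraries), followed by *Sidpn*, a Hairy-related factor gene (0.84), and *Drep1*, a gene of the DNA fragmentation factor family (0.84). Within the 8 mutants r was 0.88, 0.87 and 0.97 for these genes, and within WT 0.91, 0.93 and 0.93. *Sidpn* had 125 and 154 TPM in *Atx2* RNAi at ZT12, 8.04 and 11.7 TPM at ZT0, and 20.5 to 129 TPM in WT. Those most like *CrebB* were *smog*, a G-protein-coupled receptor gene (0.89), *CG32137* (0.88) and *hppy*, a kinase gene (0.87), with r of 0.85 to 0.94 within either the mutant or the WT libraries.

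*Hr51* (FBgn0034012, arm 2R, 15331325 to 15339384, plus strand) was not called between genotypes. Its normalized counts were 583 and 586 in *Atx2* RNAi at ZT0, against 605 and 556 in WT, and 675 and 690 at ZT12, against 579 and 604 in WT. In *tyf(e)* they were 606 and 1253 at ZT4, against 798 and 714 in WT, and 1336 and 1645 at ZT16, against 871 and 1263 in WT. Both mutant libraries were thus above both WT libraries in *Atx2* RNAi at ZT12 and in *tyf(e)* at ZT16. These splits were not counted over all genes. The log2 differences were 0.01 ± 0.19, 0.21 ± 0.19, 0.30 ± 0.31 and 0.48 ± 0.31, with adjusted p between 0.403 and 0.983 (edgeR). In TPM the direction in *Atx2* RNAi at ZT0 was the other one, with 47.8 and 54.0 against 70.1 and 58.9 in WT, while *Pdf* alone took 262756 and 275325 TPM in these *Atx2* RNAi libraries, against 192687 and 218428 in WT.

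*Hr51* stood highest at ZT16 in both genotypes sampled then, with 78.1 and 94.3 TPM in *tyf(e)* and 99.3 TPM in WT. In *tyf(e)* the log2 difference of ZT4 against ZT16 was -0.68 ± 0.31 (adjusted p = 0.484, edgeR). With each library left out in turn it ran from -1.31, without the second ZT4 library, to -0.25. With all 4 libraries none of the 6 genes was called between times in *tyf(e)*, where 0.989% of all genes were called, and *Hr51*, *kay* and *CrebB* had unadjusted p of 0.0467, 0.0459 and 0.00319 in the quasi-likelihood test while DESeq2 called *CrebB*. The genes most like *Hr51* were *GlnRS*, for glutaminyl-tRNA synthetase (r = 0.90), *Nt5b* (0.88) and *CG5112* (0.88), with r of 0.72 to 0.98 within either set of libraries.

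*kay* (FBgn0001297, arm 3R, 29765995 to 29794113, plus strand) had its widest difference in *tyf(e)* at ZT16. Its normalized counts were 205 and 157 there, against 426 and 493 in WT at ZT14 and ZT16. The log2 difference of -1.35 ± 0.47 did not pass (adjusted p = 0.111, edgeR). It was called with DESeq2 (0.0444), without the filter (0.00102) and with only these 4 libraries (0.00982), and not in the other 3 alternative settings. The groups did not overlap, a split that was not counted over all genes. Among the genes followed, 4 lay wholly below WT in this comparison, *kay* included, and 1 wholly above. In *Atx2* RNAi *kay* had 185 and 265 at ZT0, against 283 and 419 in WT (-0.64 ± 0.39, adjusted p = 0.369), and 157 and 205 at ZT12, against 119 and 296 (-0.19 ± 0.40, adjusted p = 0.833, edgeR).

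At ZT4 the *tyf(e)* libraries differed from each other in *kay*, with 540 and 196 normalized counts, against 602 and 231 in WT at ZT2 and ZT4. The log2 difference was -0.16 ± 0.46 (adjusted p = 0.895) and ran from -1.07 without the first *tyf(e)* ZT4 library to 0.65 without the WT ZT2 library, so its direction rested on single libraries. The first *tyf(e)* ZT4 library also held the most *Gad1* (192 TPM) and *Gs2* (213 TPM) of the 14, and the part of these in its *kay* level was not tested. The genes most like *kay* were *tamo* (r = 0.83), *CG9933* (0.83) and *dom*, for a SWI2/SNF2 chromatin remodeller (0.81), with r of 0.70 to 0.92 within either set of libraries.

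Among themselves, *ap* and *ato* had the highest correlation over the 14 libraries (r = 0.89), which again spans the gap between mutant and WT libraries. The other 14 pairs had r between -0.49 (*Hr51* and *kay*) and 0.42 (*ap* and *kay*), so the 6 genes did not share 1 pattern.

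The annotated transcripts behind each gene were described from the deposited estimates, with no test. *ato* and *Hr51* each had 1 transcript. For *ap*, *ap-RB* held 80.3% to 100% of the TPM in the mutants and 81.3% to 95.4% in WT. It starts at 5709292, downstream of the start of *ap-RA* at 5726832, and ends at the same base, 5706202. *CrebB-RJ* held 74.7% to 95.5% of the *CrebB* TPM in the mutants and 75.3% to 95.1% in WT, so the same transcript led at every level of the gene. *kay-RB* and *kay-RF*, which start at 29782609 and 29788936, held most of *kay*, at 25.4% to 71.9% each in *Atx2* RNAi, 8.0% to 54.3% in *tyf(e)* and 26.0% to 72.5% in WT, a scatter too wide to order them.

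*Eip75B* was carried by 3 of its 7 transcripts. *Eip75B-RF*, which starts at 18064696, held 56.1% to 63.8% in *Atx2* RNAi, 45.2% to 52.8% in *tyf(e)* and 52.8% to 70.4% in WT. The short *Eip75B-RD*, which starts at 17961814, held 18.1% to 37.3%, 25.8% to 46.5% and 17.6% to 34.6% in the same groups. *Eip75B-RE*, which starts at 18061453, had the smallest share of the 3 in most libraries: it held 14.2% and 17.6% in *Atx2* RNAi at ZT0 and 3.4% and 3.9% at ZT12, 8.3% to 20.1% in *tyf(e)*, and 25.7% in WT at ZT0, against 2.9% to 7.1% in the other 5 WT libraries. The RE share was thus higher at ZT0 than at ZT12 in both genotypes sampled at these times. By gene span, *CrebB* overlaps *por* on the opposite strand (at most 23.2 TPM) and *kay* overlaps *fig* (at most 1.37 TPM). Whether their exons share bases was not examined. No strand setting is given in the sources used here, so reads of any shared bases cannot be told apart. *Eip75B* likewise overlaps *CG32192* (at most 4.87 TPM) and *CG42393* (at most 3.83 TPM), whereas *ap*, *ato* and *Hr51* overlap no annotated gene. Noncoding genes that were not quantified also lie in the spans of *Eip75B*, *kay* and *CrebB*.

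**Figure D5:**
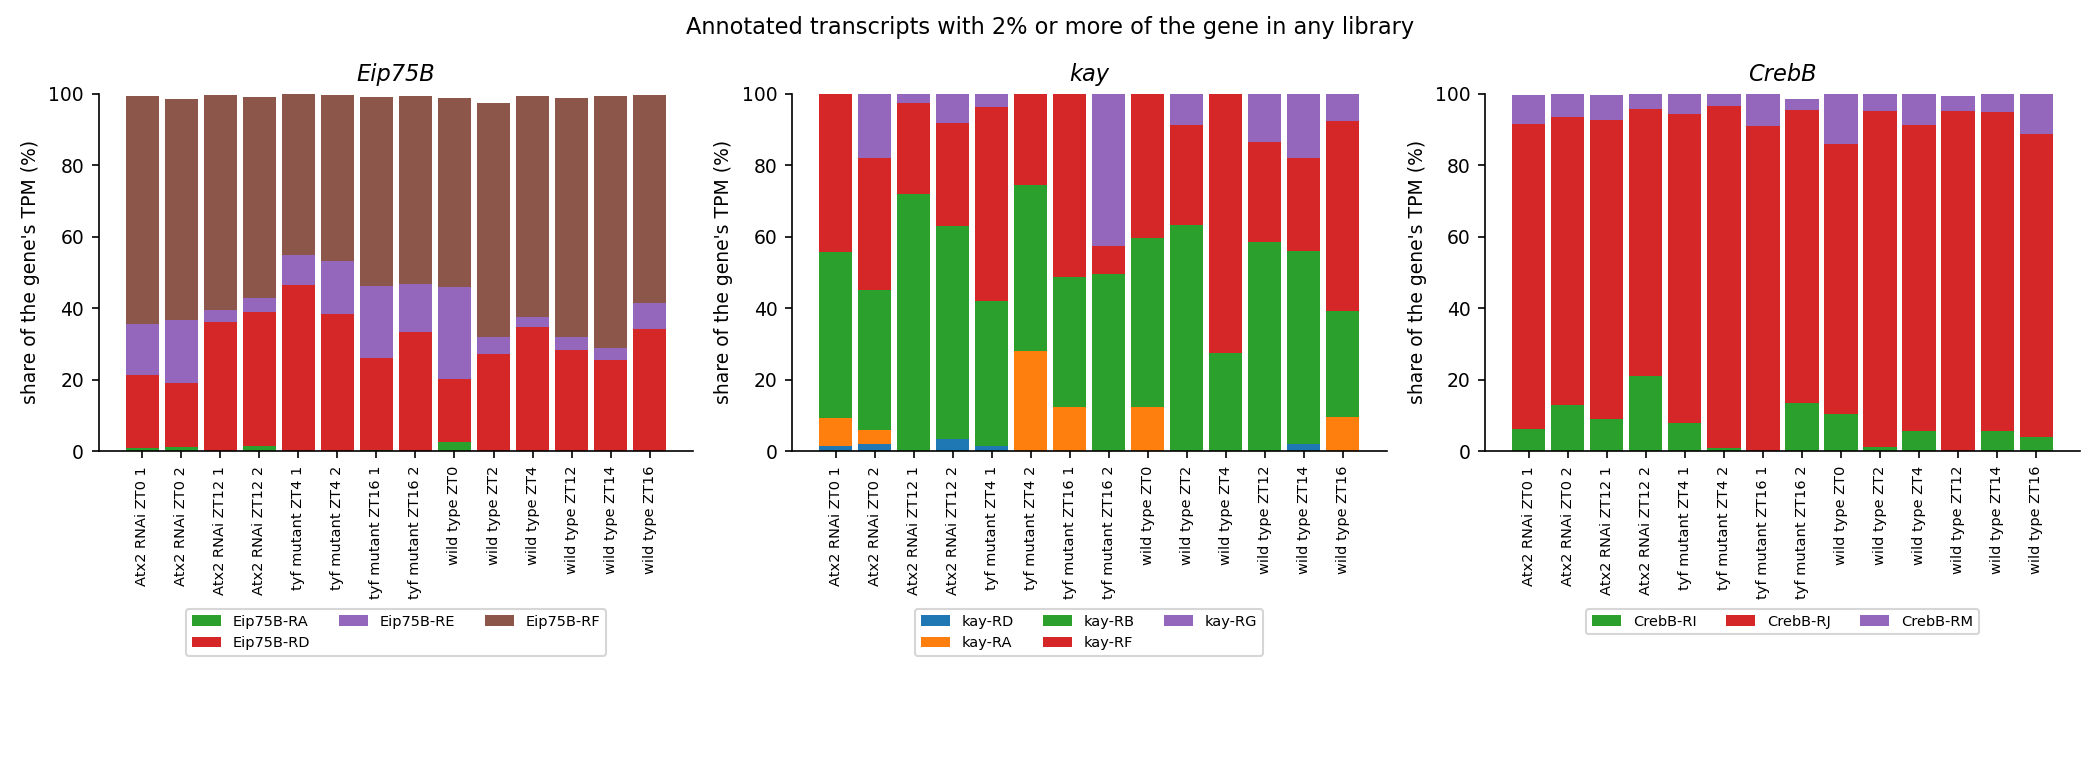
Share of each gene's TPM in percent (vertical axes, 0 to 100) held by annotated transcripts of *Eip75B*, *kay* and *CrebB* in each of the 14 libraries, showing transcripts that reach 2% in any of them. *CrebB-RJ* leads in every library with 74.7% or more, while *Eip75B-RE* runs between 2.9% and 25.7%.

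The families of these genes were counted from lists of their members in the same fits. Of 21 nuclear receptor genes, *Hr51* and *Eip75B* included, 16 were tested in each mutant comparison. In *Atx2* RNAi 1 was called lower at ZT0 (*svp*), near the share of 7.3% over all genes, and at ZT12, beside 6.83% over all genes, 3 were lower (*svp*, *Hr4* and *Eip78C*) and 1 higher (*Hr38*). In *tyf(e)* none was called at ZT4 and 2 were lower at ZT16 (*svp* and *Hr4*), beside 4.3% and 6.22% over all genes. *svp*, the fly COUP-TF gene, had 0.15 to 1.10 TPM in *Atx2* RNAi and 0.73 to 6.04 TPM in *tyf(e)*, against 3.92 to 11.1 TPM in WT, with log2 differences of -3.19 ± 0.71 and -4.48 ± 0.84 in *Atx2* RNAi at ZT0 and ZT12 and -3.32 ± 0.65 in *tyf(e)* at ZT16.

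Of 20 bZIP genes, *kay* and *CrebB* included, 17 were tested. In *Atx2* RNAi at ZT0, 3 were lower (*CrebB*, *Atf3* and *CrebA*) and 2 higher (*vri* and *Pdp1*, both clock-controlled), beside 7.3% over all genes, and none was called at ZT12, where 17 were tested and *CrebA* had a log2 difference of 0.69 ± 0.21 (adjusted p = 0.0715, edgeR). In *tyf(e)*, *vri* was higher at ZT4 and *gt* lower at ZT16, 1 of 17 each time and near the shares of 4.3% and 6.22% over all genes. *CrebA*, for a regulator of secretory capacity, had a log2 difference of -1.25 ± 0.21 in *Atx2* RNAi at ZT0 (adjusted p = 0.00543), beside -1.40 for *CrebB*. In *tyf(e)* the *CrebA* values were -0.34 ± 0.33 at ZT4 and -0.08 ± 0.33 at ZT16, neither called.

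Of 7 LIM-homeodomain genes 6 were tested. In *Atx2* RNAi, *ap* and *tup* (the fly Islet gene) were lower and *Lim1* higher at ZT0, and *ap*, *tup* and *Lim3* were lower at ZT12, beside 7.3% and 6.83% over all genes. In *tyf(e)* none was called at ZT4, and *ap* and *tup* were lower at ZT16, beside 4.3% and 6.22% over all genes. *tup* had 0.33 to 1.10 TPM in *Atx2* RNAi and 0.18 to 5.81 TPM in *tyf(e)*, against 6.27 to 13.7 TPM in WT. *Lim1*, by contrast, was the most abundant of those named, with medians of 207 TPM in *Atx2* RNAi, 217 TPM in *tyf(e)* and 127 TPM in WT.

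Of 13 proneural bHLH genes 4 were tested in the *Atx2* RNAi comparisons and 5 in those of *tyf(e)*. *Fer2*, which is needed for small LNvs, was called lower with *ato* in *Atx2* RNAi at ZT0 (-1.18 ± 0.25) and in *tyf(e)* at ZT4 (-2.10 ± 0.25) and ZT16 (-1.65 ± 0.24), and its difference in *Atx2* RNAi at ZT12 was 0.04 ± 0.25. The shares over all genes were 7.3% and 6.83% in *Atx2* RNAi at ZT0 and ZT12, and 4.3% and 6.22% in *tyf(e)* at ZT4 and ZT16. Of 9 partner and cofactor genes, all tested, *Chi*, whose product binds LIM domains and works with ap in the wing, was lower in *Atx2* RNAi at ZT0 (-1.10 ± 0.21), and *emc*, for an inhibitor of proneural factors, was lower at ZT12 (-2.91 ± 0.55). This was 1 of 9 each time, near the shares of 7.3% and 6.83% over all genes. None of the 9 was called in *tyf(e)*. *Jra*, for the Jun partner of Fos, was not called in any of these comparisons, its widest difference being -0.70 ± 0.20 in *Atx2* RNAi at ZT0 (adjusted p = 0.0623, edgeR).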

How the data were processed

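The authors quantified single-end reads of 50 bases with kallisto against FlyBase transcripts (release 6.14) and deposited, for 30438 transcripts per library, estimated counts (expected counts, not normalized) and TPM (corrected for length and scaled to a fixed total). Transcripts were assigned to genes by the Ensembl release 115 annotation. 30191 matched, and 247, with 0.234% of the counts, were left out. TPM and counts were summed per gene, and counts rounded. The genes and lists were chosen with earlier results of these data known.

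Counts were tested with edgeR 4.0.16 (TMM, filterByExpr, quasi-likelihood F-test) in R 4.3.3, over the 8 libraries of each experiment or all 14. SE is the log2 fold change divided by the root of F. The floor was 3 counts. The genes named were the 6 chosen, called genes of the lists, and the 3 most similar genes by r. On simulated counts for *Atx2* RNAi at ZT0 (8643 genes), 70.4% of 4-fold and 12.9% of 2-fold changes were recovered, and 8% of the calls were false.

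Alternatives were DESeq2 1.42.0, its size factors in edgeR, no filter, a length offset, a replicate block, only the compared libraries, and each library left out.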

Additional observations from a re-analysis of the deposited data

How the results depend on the processing

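The numbers 1 and 2 of replicates did not pair libraries: deviations of same-numbered libraries correlated at 0.059 for *Atx2* RNAi and 0.042 for *tyf(e)*. With the replicate block, *Eip75B* between *Atx2* RNAi times was not called (adjusted p = 0.0774), leaving 0 of the 6 genes, and calls over all genes were 228 in place of 354, and 15 in place of 64 for the *Atx2* RNAi interaction.

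Of the 6 genes, 2 were called in *tyf(e)* at ZT4 without the filter and with DESeq2, and 1 each (*CrebB*) between *tyf(e)* times, in the *Atx2* RNAi interaction and between WT times under the same 2 alternatives. With each library left out in turn, 1 to 3 were called in *Atx2* RNAi at ZT0, 1 to 2 at ZT12, 1 to 2 in *tyf(e)* at ZT16, 0 to 0 between *Atx2* RNAi times, and 0 to 1 between *tyf(e)* times, in the *Atx2* RNAi interaction and between WT times. Where a group then held 1 library, it was assumed to vary like the others.

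Calls over all genes without the filter were 1126 and 1142 for *Atx2* RNAi at ZT0 and ZT12 (631 and 590 with it), 816 and 1006 for *tyf(e)* at ZT4 and ZT16 (409 and 591), 721 and 349 between times (354 and 94), and 397 and 152 for the interactions (64 and 5). With DESeq2 they were 894 for *Atx2* RNAi at ZT12, 780 and 1025 for *tyf(e)*, 538 and 235 between times, 229 and 54 for the interactions and 331 between WT times (199). With only the compared libraries they were 222 and 946 for *tyf(e)*, 748 and 61 between times and 115 between WT times, and with DESeq2's size factors 1 for the *tyf(e)* interaction.

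Signs turned only for differences that were not called. Without the filter, *Eip75B* and *CrebB* in *Atx2* RNAi at ZT12 were -0.044 and -0.004. With libraries left out, log2 differences ran as follows. In *Atx2* RNAi at ZT0, *Hr51* ran from -0.048 to 0.075 and *Eip75B* from -0.55 to 0.004. At ZT12, *Eip75B* ran from -0.075 to 0.064, *kay* from -0.72 to 0.58 and *CrebB* from -0.048 to 0.11. In *tyf(e)* at ZT4, *Hr51* ran from -0.34 to 0.73, *Eip75B* from -0.10 to 0.58, *kay* from -1.07 to 0.65 and *CrebB* from -0.21 to 0.84. Between *Atx2* RNAi times, *ap* ran from -0.39 to 1.27. In the *Atx2* RNAi interaction, *ato*, at the floor in the mutants, ran from -2.44 to 4.51, *Eip75B* from -0.54 to 0.004 and *kay* from -1.21 to 0.078. In the *tyf(e)* interaction, *Hr51* ran from -0.80 to 0.25 and *CrebB* from -0.55 to 0.52. Between WT times, *kay* ran from -0.22 to 0.47. For both mutants, *Eip75B* ran from -0.17 to 0.013 and *CrebB* from -0.16 to 0.14. The cause was not tested. Of 676 recomputed differences of single genes, 621 kept their direction and side of the threshold.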
